A study of Mus musculus with 4 samples.

Results

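U3 is a small nucleolar RNA (snoRNA) transcribed in the mouse from Rnu3a and from the Rnu3b copies. Every gene whose symbol in the count table began with Rnu3a or Rnu3b was taken, which gave 10 gene identifiers of the 52550 listed, under the 5 symbols Rnu3a, Rnu3b1, Rnu3b2, Rnu3b3 and Rnu3b4. These RNAs were chosen by their counts in the pulldown, which were far below those of the input, so the values of the pulldown against the input are given for them as a description, without a test. The RNA came from retinas of wild type C57BL/6 mice at postnatal day 0 (P0), dissociated into cells with papain. The 2 groups were the input RNA and the RNA eluted after RNA immunoprecipitation (RIP) with an antibody against YTHDF2, a cytoplasmic protein that binds N6-methyladenosine (m6A) in RNA. Each group had 2 replicates, and no pulldown with a control antibody was analysed here. The labels do not say how many animals gave each replicate.

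U3 belongs to the box C/D snoRNAs, named after 2 short sequence boxes that the core proteins fibrillarin, NOP56, NOP58 and SNU13 assemble on. Most box C/D snoRNAs guide the methylation of ribose in other RNAs, whereas U3 base pairs with the pre-ribosomal RNA and is needed for the cleavages that release the 18S rRNA of the small ribosomal subunit. It is transcribed from genes of its own by RNA polymerase II and carries a hypermethylated cap, matures in Cajal bodies, and works in the nucleolus inside a large assembly called the small subunit processome.

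The sequences of Rnu3a and Rnu3b1 show what sequencing reads could tell apart. They are the annotated transcripts of GENCODE M21 on the mouse genome build GRCm38, written 5′ to 3′ with T for U. The capitals mark the letters TGATGA, a match to box C, and the last CTGA, a match to box D.
Rnu3a: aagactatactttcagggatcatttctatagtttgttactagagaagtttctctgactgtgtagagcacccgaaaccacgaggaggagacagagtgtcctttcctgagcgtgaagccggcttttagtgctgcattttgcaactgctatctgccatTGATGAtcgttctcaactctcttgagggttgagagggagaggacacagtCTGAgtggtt
Rnu3b1: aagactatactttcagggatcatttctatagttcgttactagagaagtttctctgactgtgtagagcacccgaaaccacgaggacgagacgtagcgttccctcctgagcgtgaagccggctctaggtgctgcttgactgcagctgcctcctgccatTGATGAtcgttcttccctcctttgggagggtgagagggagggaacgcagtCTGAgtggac
Rnu3b2, Rnu3b3 and Rnu3b4 had exactly the sequence of Rnu3b1. The Rnu3a transcript was 214 bases long and the Rnu3b transcripts 216 bases, with a GC content of 46.3% and 52.8%. Aligned end to end over 216 columns, Rnu3a and Rnu3b1 were identical at 184 (85.2%), differed by a substitution at 30 and had a gap at 2. Their first 33 bases were identical, and the first substitution was T34C, with the Rnu3a base first, the position counted from 1 at the 5′ end of Rnu3a, and the Rnu3b1 base last. Only 7 of the substitutions lay in the first 100 bases of Rnu3a. Box C began at position 156 of Rnu3a and 157 of Rnu3b1, and the last CTGA at positions 205 and 207.

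A stretch of 25 bases from Rnu3a was absent from Rnu3b1 at 155 of 190 start positions (81.6%), a stretch of 50 bases at 164 of 165 (99.4%) and a stretch of 75 bases at all 140. Reads of Rnu3a and Rnu3b could therefore mostly be told apart. For Rnu3b1 against Rnu3b2 the number of stretches that differed was 0 of 192, 0 of 167 and 0 of 142 at these lengths. No read from within the RNA could be assigned to a single Rnu3b copy, so the values of the 4 copies depend on how reads with several equal positions were shared out, which is not given in the sources used here.

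Rnu3a lies on the plus strand at chr10:40258467-40258680 (GRCm38), in no other gene, and 359 bases from Gtf3c6 on the opposite strand. The 4 Rnu3b copies lie on the plus strand of chromosome 11 within 28347 bases, in the order Rnu3b1 (chr11:87443237-87443452), Rnu3b3 (chr11:87448627-87448842), Rnu3b4 (chr11:87462286-87462501) and Rnu3b2 (chr11:87471368-87471583). From start to start they stand 5390, 13659 and 9082 bases apart. All 4 are in introns of Tex14, a gene for a protein of intercellular bridges in germ cells that runs on the same strand (chr11:87405065-87555823), and none overlaps an annotated exon of it. Tex14 itself had 2 and 11 counts in the inputs, against 3 and 3 after RIP. These counts are small beside those of the copies inside the gene. Reads from the Tex14 introns around the copies were not measured, and their part in the U3 counts was not tested.

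**Figure D1:**
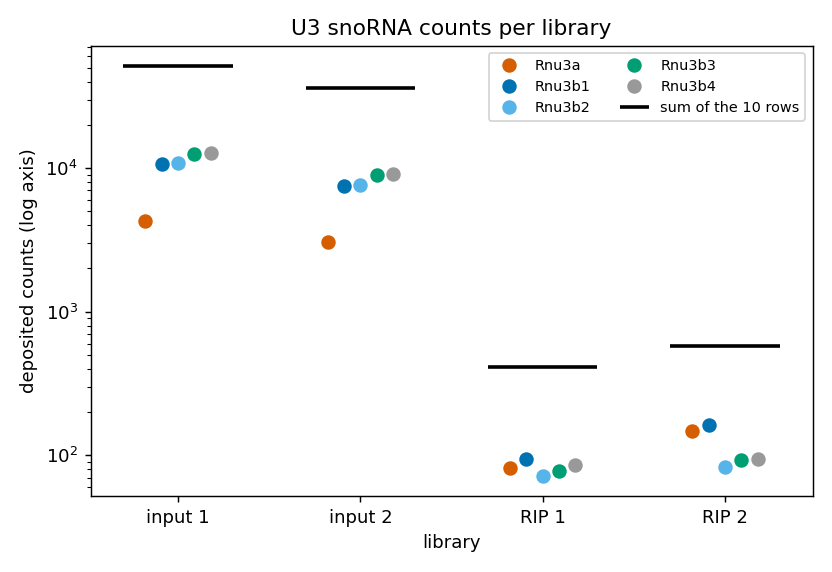
Counts of each U3 gene in the 4 libraries, on a log axis. Points stand for the 5 symbols and black bars for the sum of all U3 rows, which is 51089 and 36086 in the inputs, against 410 and 578 after RIP.

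Few U3 reads were found after the YTHDF2 pulldown. The 10 U3 genes together held 51089 counts in input replicate 1 and 36086 in input replicate 2, and 410 and 578 counts in RIP replicates 1 and 2. Both RIP libraries were far below both inputs, and the groups did not overlap. Relative to the library totals of 39499994, 36236531, 19530226 and 24903212 counts, U3 took 0.129% and 0.0996% of the input counts and 0.00210% and 0.00232% of the RIP counts. In CPM, counts scaled to a common library size by the trimmed mean of M values (TMM), the level was 1291 ± 340 in the inputs, against 20.1 ± 5.50 after RIP (SD, n = 2 each). The log2 difference of RIP minus input was -6.56 in replicate 1 and -5.45 in replicate 2, with a mean of -6.01 ± 0.78 (SD, n = 2), which is 94.3-fold lower in replicate 1 and 43.8-fold lower in replicate 2. With libraries matched by replicate number, the replicates thus differed by about 1 log2 unit in the size of a difference that had the same direction in both. Over all tested genes the matched inputs and RIP libraries did not vary together (Spearman correlation -0.0322). The spread of these log2 differences therefore depends on that matching.

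The composition of the libraries differed between the groups as well. The 2 genes that overlap rRNA repeats, AY036118 and CT010467.1, made up 55.5% and 55% of all reads counted in the inputs, against 85.3% and 87.8% after RIP, and protein-coding genes received between 2083594 and 4175459 counts per library. Markers of retina were detected at 9 of 9, with a summed level of 288 CPM in the inputs, against 225 CPM after RIP. Of 4 lens markers 1 had counts, at 0.0437 CPM in the inputs and 0 after RIP, and Cryaa, Crygs and Mip were at 0, and all 4 markers of blood and vessels had counts, at a summed 3.04 and 2.05 CPM. The part of these differences in the U3 values was not tested.

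The inputs ranked U3 among the most abundant annotated RNAs per length. In FPKM, a level in reads scaled for gene length and library total, the summed U3 genes stood at 5729 and 4453 in the inputs, against 89.1 and 98.7 after RIP. Among 52541 genes, with U3 as a single entry, these levels ranked 17 and 19 in the inputs, against 50 and 42 after RIP. Among 1549 genes annotated as snoRNA or small Cajal body RNA (scaRNA), U3 had the highest level in both inputs and rank 9 in both RIP libraries. Most of the 1549 were at 0: with U3 included, 368 and 356 had a level above 0 in the inputs, against 269 and 255 after RIP. U3 made up 40.6% and 39.6% of the summed FPKM of these genes in the inputs, against 0.403% and 0.392% after RIP. The next highest of them in the inputs, Gm22009, had 4228 and 2683 FPKM there and 14115 and 15519 FPKM after the pulldown. In the inputs the neighbouring levels of U3 and Gm22009 did not overlap between replicates.

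Rnu3a had the fewest counts of the 5 symbols in the inputs and was the least reduced by the pulldown. It held 4262 and 3052 counts in the inputs, against 81 and 147 after RIP, and its log2 difference was -5.32 and -3.86 (mean -4.59 ± 1.03, SD, n = 2). The 8 Rnu3b genes together held 46827 and 33034 counts in the inputs, against 329 and 431 after RIP, with log2 differences of -6.75 and -5.75 (mean -6.25 ± 0.71, SD, n = 2). Within each replicate, Rnu3a was thus reduced less than Rnu3b, by 1.44 and 1.88 on the log2 scale, or 2.71-fold and 3.69-fold.

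The same difference can be read as a share, which does not depend on the scaling of the libraries. Rnu3a made up 8.34% of the U3 counts in input replicate 1 (exact 95% binomial interval 8.10 to 8.59) and 8.46% in input replicate 2 (8.17 to 8.75). In the RIP libraries it made up 19.8% (16.0 to 23.9) and 25.4% (21.9 to 29.2). The intervals of the 2 groups did not overlap, and they cover counting error only, since reads without molecular identifiers are not independent molecules. With 2 libraries against 2, no exact permutation test of a single value can give a two-sided p below 0.333.

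**Figure D2:**
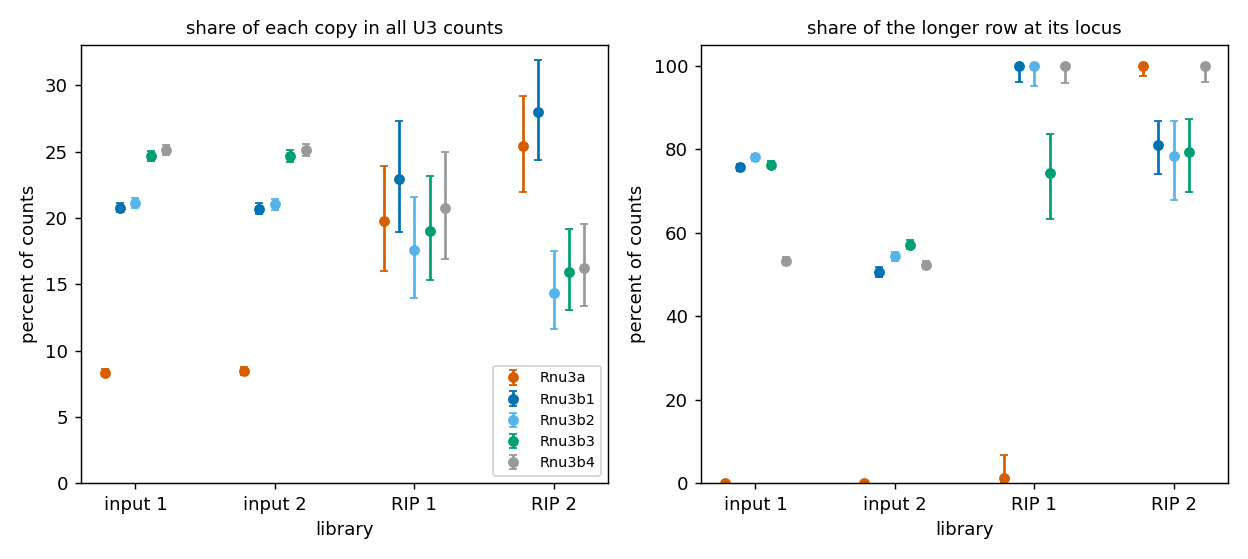
Share of all U3 counts that fell on each symbol, in percent, for the 4 libraries, with exact 95% binomial intervals. The Rnu3a share is 8.34% and 8.46% in the inputs, against 19.8% and 25.4% after RIP.

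The 4 identical Rnu3b copies were given unequal counts. In the inputs Rnu3b1 held 10613 and 7467 counts, Rnu3b2 10802 and 7585, Rnu3b3 12594 and 8908, and Rnu3b4 12818 and 9074. Their shares of the U3 counts hardly differed between the inputs, at 20.8% and 20.7% for Rnu3b1 and 25.1% in both for Rnu3b4. In the RIP libraries Rnu3b1 held 94 and 162 counts, Rnu3b2 72 and 83, Rnu3b3 78 and 92, and Rnu3b4 85 and 94. The log2 differences of RIP minus input averaged -5.72 ± 0.99 for Rnu3b1, -6.41 ± 0.58 for Rnu3b2, -6.51 ± 0.60 for Rnu3b3 and -6.46 ± 0.53 for Rnu3b4 (SD, n = 2 each). Rnu3b2, Rnu3b3 and Rnu3b4 lay within their spread of each other. Rnu3b1 was the least reduced of the 4 in both replicates, at -6.42 and -5.01, and its share of U3 counts was 22.9% and 28% in the RIP libraries. Since the transcript sequences are identical, the copies themselves cannot be told apart by these values. A lncRNA of RefSeq (GRCm38.p6), LOC115487798, also covers Rnu3b1 on chr11:87441465-87443454, and its part in the Rnu3b1 counts was not tested.

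**Figure D3:**
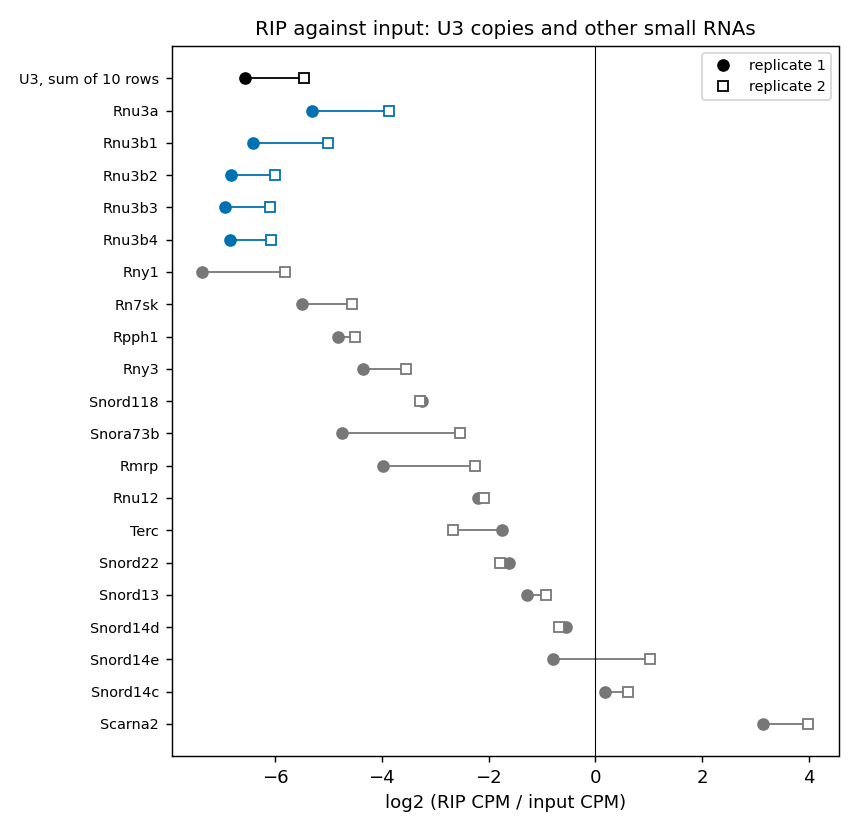
Log2 difference of RIP minus input, from CPM, for all U3 genes together, each U3 symbol and the other listed small RNAs that were tested. Filled circles are replicate 1 and open squares replicate 2, and a thin line joins them. Replicate 2 lies above replicate 1 for every U3 symbol, and among these Rnu3a has the smallest reduction, -5.32 and -3.86.

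Each symbol had 2 gene identifiers that start at the same base and end 1 base apart, and the counts moved between them from library to library. The shorter Rnu3a model (ENSMUSG00000106147, 213 bases) held 4261 and 3051 counts in the inputs, 80 in RIP replicate 1 and 0 in RIP replicate 2. The longer model (ENSMUSG00000065870, 214 bases) held 1 count in both inputs and in RIP replicate 1, and 147 in RIP replicate 2. The longer model thus took 0.0235%, 0.0328%, 1.23% and 100% of the Rnu3a counts in the 4 libraries, while their sum behaved as described above. The count of 1 stood for 0.170, 0.0992 and 0.184 of a read by the FPKM table, since the deposited counts are fractions rounded up to whole numbers. As separate genes, the shorter model would appear at least 713-fold lower in RIP replicate 2, and the longer model higher.

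The Rnu3b models were split in a like way. The longer model took 75.6% and 50.6% of Rnu3b1 in the inputs, against 100% and 80.9% after RIP. For Rnu3b2 it took 78.0%, 54.3%, 100% and 78.3%, for Rnu3b3 76.3%, 57.1%, 74.4% and 79.3%, and for Rnu3b4 53.2%, 52.2%, 100% and 100%. The shorter Rnu3b4 model (ENSMUSG00000098641) had 5998 and 4336 counts in the inputs and 0 in both RIP libraries, at least 1513-fold and 1013-fold lower against a floor of 3 counts per library. The longer one (ENSMUSG00000104896) had 6820 and 4738 counts in the inputs, against 85 and 94 after RIP. Of the 10 models, 9 passed the filter on low counts, and the longer Rnu3a model did not. The rule that picked U3 has no threshold on these values, so no members lie just inside or outside it.

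Reads of U3-like genes elsewhere added little. A search of the annotated transcripts with the Rnu3a and Rnu3b1 sequences found 10 further gene identifiers at 7 loci, 79.0% to 96.3% identical to U3 over the aligned part, among them Gm23927, Gm22865 and Gm25203, which lie at the RefSeq pseudogenes Rnu3b-ps1, Rnu3b-ps2 and Rnu3b-ps3. Together they held 40 and 25 counts in the inputs, against 3 and 0 after RIP. These are 0.0783% and 0.0693% of the U3 counts in the inputs, against 0.732% and 0% after RIP.

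YTHDF2 binds m6A, which is mostly found in mRNA at the letters GGACT or AGACT and their variants. The U3 sequences printed above were searched for both on both strands. Their variants were not counted, although some are present. For example, GGACA and AGACA are in the printed Rnu3a but not in Rnu3b1, and TGACT is in both. GGACT was in neither Rnu3a nor Rnu3b1, whereas 21.3% of 48412 windows of the same length at the start of other genes' longest transcripts held it on the sense strand. AGACT occurred 1 time in each of the 2 U3 sequences, near the 5′ end, and in 21.4% of the windows. On the opposite strand, AGACT occurred 1 time in each, and GGACT was again in neither, against 19.5% and 17.9% of the windows. TGATGA occurred 1 time in each U3 sequence and in 8.16% of the windows, and CTGA 3 times in each and in 70.0% of the windows.

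The other small RNAs were tested in the fit over all 13632 genes with edgeR's quasi-likelihood test and Benjamini-Hochberg adjustment. Of these genes, 3.48% were higher and 9.78% lower in the RIP libraries at an adjusted p below 0.05, and their median log2 fold change was -0.05. With the replicate number as a block, 721 genes in place of 474 were higher. Of the Snord genes, the named box C/D snoRNAs, 19 of 99 were tested. Among them 7 were lower and 0 higher, where 0 were also higher at an unadjusted p below 0.05 and with DESeq2. Their median log2 fold change was -2.31, from -4.34 for Snord8 to 0.69 for Snord89. Of the 17 tested Snora genes, the H/ACA snoRNAs that guide pseudouridylation, 3 were lower, with a median of -1.41 and a range from -4.37 for Snora69 to -0.25 for Snora7a. Of the 5 tested Scarna genes, whose RNAs act in Cajal bodies on spliceosomal RNAs, 2 were higher, with a median of 0.43. The lower calls depended on both RIP libraries. Leaving out either RIP library removed most lower calls of Snord and Snora genes, and most of those over all genes as well. This loss is therefore not particular to the snoRNAs. The summed U3 value of -6.01 lay below the range of all 3 classes. U3 was chosen by its low RIP counts, so its place among other RNAs is a description only. When the 10 U3 genes were summed into a single gene before the fit, 72 of 13624 genes (0.528%) had a lower log2 fold change than U3, at -6.00, and 13 of the 72 had more than the floor of counts in the RIP libraries.

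Other small RNAs that take part in processing of the pre-rRNA were given by a list of 10 genes, 8 of them tested, of which 4 were lower. Snord118 (U8), which is needed for the large subunit rRNAs and like U3 has its own promoter and cap, had 239 and 235 counts in the inputs, against 19 and 17 after RIP. It was lower by this test, with a log2 fold change of -3.26 (SE 0.418, adjusted p = 0.00238 by edgeR). Without RIP replicate 1 the value was -3.21 and without RIP replicate 2 it was -3.12, neither past the threshold. Snord22 fell from 460 and 823 counts to 113 and 167, a log2 fold change of -1.73 (adjusted p = 0.0301 by edgeR), a call lost with plain library sizes (-1.46), without the filter on low counts (-1.66) and without RIP replicate 1 (-1.37) or 2 (-2.01). Snora73b (U17), an H/ACA snoRNA of 18S rRNA processing, fell from 177 and 231 counts to 5 and 28, at -3.14 (adjusted p = 0.0202 by edgeR). Its call was lost without the filter (-3.07) and without RIP replicate 1 (-2.28), and the value was -4.82 without RIP replicate 2. Rmrp, the RNA of the RNase MRP that cuts pre-rRNA, fell from 398718 and 314904 counts to 19215 and 46254, at -2.98 (adjusted p = 0.0113 by edgeR).

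Other members of that list did not pass the test. Snord13, which also acts on the 18S rRNA, had 96 and 125 counts in the inputs, against 30 and 46 after RIP, and its log2 fold change of -1.07 had an adjusted p of 0.148 (edgeR). The U14 snoRNAs Snord14c, Snord14d and Snord14e had log2 fold changes of 0.47, -0.60 and 0.31, with adjusted p of 0.771, 0.598 and 0.836 (edgeR). Snord14a and Snora73a had too few counts to be tested, at 1 and at 4 to 7 counts per library.

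Small RNAs that, like U3, are made from their own genes were a second list, with 7 tested, 5 lower and 1 higher, and a median log2 fold change of -3.87. Rny1, a Y RNA made by RNA polymerase III, had the strongest reduction, from 226525 and 139627 counts in the inputs to 1040 and 1743 in the RIP libraries, at -6.58 (adjusted p = 0.000876 by edgeR). Rn7sk, the RNA that holds the elongation factor P-TEFb inactive, had 2272954 and 2025853 counts in the inputs and 38203 and 60710 after the pulldown, at -4.98 (adjusted p = 0.00153 by edgeR). Rpph1, the RNA of RNase P, was lower at -4.61 (adjusted p = 0.00213 by edgeR), Rny3 at -3.87 (adjusted p = 0.00176 by edgeR), and Rnu12, the U12 RNA of the minor spliceosome, at -2.14 (adjusted p = 0.00587 by edgeR). Rnu12 had 744 and 809 counts in the inputs, against 123 and 133 after RIP, and leaving out either RIP library ended its call. Terc, the telomerase RNA, had 31 and 18 counts in the inputs, against 7 and 2 after RIP, at -1.98 with an adjusted p of 0.181 (edgeR). Rnu7, the U7 RNA of histone mRNA processing, had 1 count in each library and was not tested.

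Scarna2 went the other way. This scaRNA is also transcribed from its own gene and resides, as U3 does during maturation, in Cajal bodies. It had 2681 and 2354 counts in the inputs, against 17804 and 26106 after RIP, and its log2 fold change was 3.59 (adjusted p = 0.00169 by edgeR). Both RIP libraries thus held more Scarna2 than U3 counts, and both inputs held more U3 than Scarna2 counts.

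The mRNAs of the proteins that assemble with U3 were listed by their place in the particle, and 64 of them were tested. Of these, 1 was higher, 8 were lower and 55 passed the test in neither direction, beside 3.48% and 9.78% of all tested genes. Their median log2 fold change was -0.42, beside -0.05 over all tested genes. These calls needed both RIP libraries: leaving out either RIP library removed nearly all of them. It removed most calls over all genes as well, so this loss is not particular to these mRNAs. The lone RIP library was then taken to vary as the inputs do.

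**Figure D4:**
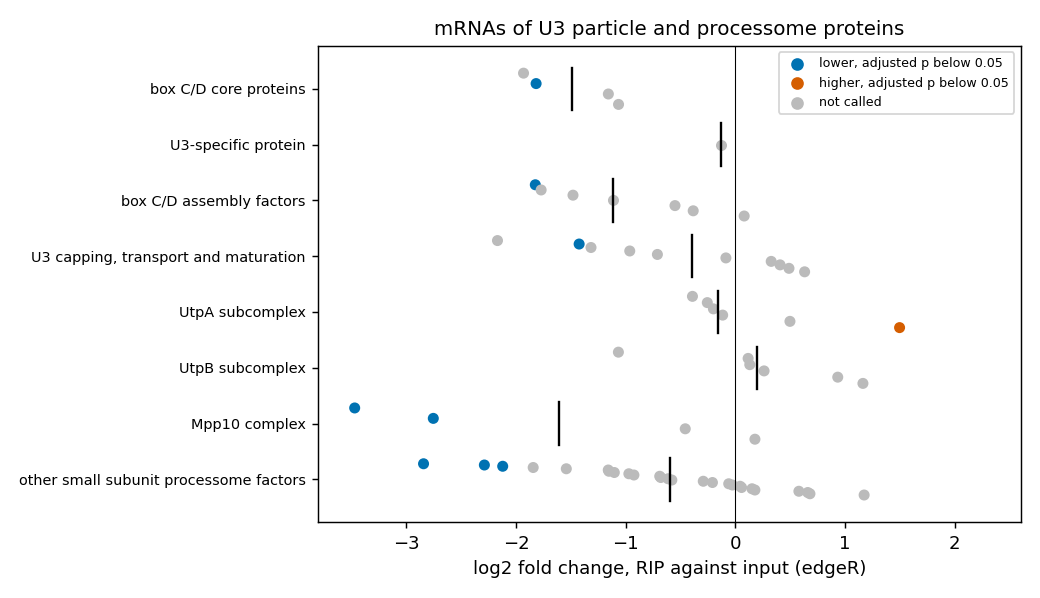
Log2 fold change of RIP against input from edgeR for the mRNAs of U3 particle and small subunit processome proteins, a point per gene and a line at each list's median. Blue points are lower and the orange point, Heatr1, is higher at an adjusted p below 0.05, and 55 of 64 are not called.

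Of the box C/D core proteins, Snu13, which binds the kink formed by boxes C and D, had 921 and 567 counts in the inputs, against 139 and 169 after RIP. It was lower, with a log2 fold change of -1.82 (SE 0.390, adjusted p = 0.020 by edgeR). Fbl, the methyltransferase fibrillarin, had 464 and 530 counts in the inputs, against 182 and 143 after RIP, and its log2 fold change of -1.16 (SE 0.340) had an adjusted p of 0.0576 (edgeR). Nop56 had a log2 fold change of -1.06 and Nop58 of -1.93, with adjusted p of 0.101 and 0.0939 (edgeR), and with the replicate block Nop58 was called lower, at -1.58. The Nop58 inputs were unequal, with 121 and 584 counts, against 84 and 50 after RIP. Its log2 difference was -0.12 in replicate 1 and -3.03 in replicate 2, and its value without input replicate 2 was -0.43. DESeq2 also called Fbl (-1.15) and Nop58 (-1.93) lower. All 4 values lay below 0, and 1 of the 4 passed edgeR's test and 3 passed that of DESeq2. Over all genes, edgeR called 1333 of 13632 lower, and DESeq2 called 1456 of 23345 genes with counts lower. Leaving out either input added lower calls by edgeR among the 4, as it did over all genes. When either RIP library was left out, the call of Snu13 was lost and no other was gained. Rrp9, the protein that among these binds U3 alone, had 66 and 54 counts in the inputs, against 39 and 41 after RIP, with a log2 fold change of -0.13 (SE 0.456, adjusted p = 0.880 by edgeR). With plain library sizes in place of TMM the Rrp9 value turned to 0.20.

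Of the processome subcomplexes, the Mpp10 complex had 2 of 4 mRNAs lower. Utp3 fell from 356 and 470 counts in the inputs to 27 and 27 in the RIP libraries, a log2 fold change of -3.47 (SE 0.403, adjusted p = 0.00162 by edgeR). Mphosph10, the protein that gives the complex its name, had 37 and 86 counts in the inputs, against 5 and 8 after RIP, at -2.75 (SE 0.698, adjusted p = 0.0356 by edgeR), a call that was also lost without input replicate 2. The UtpA subcomplex, which binds the 5′ end of the pre-rRNA, had 6 tested mRNAs, of which Heatr1 was higher. Heatr1 had 72 and 69 counts in the inputs, against 136 and 154 after RIP, with a log2 fold change of 1.5 (SE 0.383, adjusted p = 0.0366 by edgeR). None of the 6 UtpB mRNAs passed edgeR's test or DESeq2's, 1 of them was higher at an unadjusted p below 0.05 in both, and their median was 0.20. Of the 26 other processome factors, 3 were lower. Among them Fcf1, a nuclease-fold protein of the pre-18S rRNA, had 281 and 259 counts in the inputs, against 36 and 19 after RIP, at -2.84 (SE 0.448, adjusted p = 0.00568 by edgeR). Of the 17 assembly, capping and transport factors, Nufip1 (-1.82) and Nolc1 (-1.42) were lower, with adjusted p of 0.0386 and 0.0490 (edgeR). Both calls were lost with plain library sizes, without the filter on low counts and without either RIP library, and that of Nufip1 also with DESeq2. The calls of Utp3, Fcf1, Snu13, Mphosph10 and Heatr1 were each lost when either RIP library was left out, and those of Mphosph10 and Heatr1 also without the filter.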

How the data were processed

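Input and anti-YTHDF2 RIP libraries were made with a stranded kit. The submitters' processing notes name STAR 2.5, HTSeq and GRCm38, and the annotation and the treatment of reads with several positions are not given in the sources used here. The deposited tables hold counts and FPKM for each gene, the FPKM scaled by the authors for length and library size. The deposited counts are expected counts rounded up to whole numbers: reads implied by FPKM and length in single-exon genes with 1 to 10 counts lay 0 to 1 below the count (tolerance 0.02) for 99.6% to 99.8% of such genes, and were themselves whole for 4.38% to 5.02%. Small counts are therefore too high by up to 1.

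The tests were run with edgeR 4.0.16 in R 4.3.3 (filterByExpr with minimum count 10 and minimum total 15, TMM, glmQLFit and glmQLFTest, Benjamini-Hochberg). SEs came from the fold change and its F statistic. With U3, values are sums over gene identifiers, as log2 CPM differences between libraries of the same replicate number. Motifs, windows and alignments were computed with Biopython 1.88 and BLAST+ 2.17.0 (e-value limit 1e-05, at least 100 aligned bases) on GENCODE M21 transcripts. In data simulated from these libraries, 82.2% of 191 genes changed by a log2 of 3 were called, and 2.48% of calls were unchanged genes. The simulation left all other genes unchanged and took each gene's spread from the trend over genes. These rates therefore may not hold for smaller changes or for the real libraries, whose composition differed between the groups.

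The design text gives each replicate an input and a pulldown, so equal numbers pair the samples. Replicate 2 minus replicate 1 of the inputs was set against that of the RIP libraries, with a Spearman correlation over tested genes of -0.0322. The replicate number was left out of the model and added as an alternative. The counts of replicates differed by more than sampling noise (chi-square per degree of freedom 90.6 for inputs, 15.1 for RIP). Where nothing says that replicates came from separate animals, p-values measure the spread between these samples, which may be technical.

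Named are all U3 genes, the listed small RNAs with counts, Rrp9 and the core proteins, the 3 largest rises and falls among called genes of the other protein lists, and the 5 genes nearest to U3 in pattern. Only 1 listed gene outside the core rose, so fewer are named, and Nufip1, Nolc1, Gm22009 and the ends of the class ranges are not in this rule and were picked once their values had been seen. The U3 genes and the lists were chosen with earlier results of these data known. Alternatives were DESeq2 1.42.0, library-size scaling, TMM without rRNA and mitochondrial genes, no filter, FPKM (pseudocount 0.1), the replicate block, leaving out each library and, chosen after seeing the data, summing U3 before the fit.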

Additional observations from a re-analysis of the deposited data

How the results depend on the processing

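The log2 difference of summed U3 (-6.01) lay between -6.02 and -5.68 under the other settings and between -6.28 and -5.63 with 1 library left out, and the Rnu3a share in the inputs (8.40%) was 8.49% by FPKM. Counts over all genes depended on the settings. The 474 higher genes became 845 with plain library sizes, 292 without the filter, 721 with the replicate block and 8 to 2539 with 1 library left out, and the 1333 lower genes became 112 to 2767 with 1 left out. Plain library sizes raised the higher share of calls from 26.2% to 45.8% and the median log2 fold change from -0.05 to 0.27. Of the protein mRNAs, the 1 higher became 0 by edgeR without the filter (3 at an unadjusted p below 0.05, and 1 with DESeq2) and 0 to 6 with 1 library left out. The 8 lower became 5 with plain library sizes, 3 without the filter and 0 to 24 with 1 left out. The 9 lower small RNAs of the lists became 5 to 10 with 1 left out. Rrp9 turned from -0.13 to 0.20 with plain library sizes, and with 1 library left out its values ran from -0.29 to 0.046 (0.046 without input replicate 1, 0.044 without RIP replicate 1), those of Snord14c from -0.31 to 1.08 and those of Snord14e from -0.58 to 1.0. With the replicate block Nop58 was called lower (-1.58), and of the 24 named genes no other call changed. The causes were not tested. With 410 and 578 U3 counts in the RIP libraries, counting limits the shares of single copies there, and replicates limit the summed value.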

Other observations

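Genes with a pattern across the 4 libraries like that of summed U3 were sought among 6854 genes that had 50 or more counts in each library, by the Euclidean distance of centred log2 CPM. The 5 nearest were mt-Rnr1, the mitochondrial small subunit rRNA, at a distance of 0.546, Rny1 at 0.624, mt-Nd2, a mitochondrial mRNA of complex I, at 0.631, Rpl35, the mRNA of a ribosomal protein, at 0.651, and Rn7s2, a 7SL RNA of the signal recognition particle, at 0.666. Their log2 fold changes of RIP against input were -5.52, -6.58, -5.93, -5.47 and -6.45. The 5 are RNAs of the mitochondrion, the cytoplasm and small ribonucleoproteins. No other snoRNA was among them, but the limit of 50 counts in each library left out snoRNAs with fewer RIP counts. Snord118 had 19 and 17 there, and Snora73b 5 and 28. The absence of snoRNAs from the 5 therefore carries no result about U3, whose values here are those it was chosen by. The 4 libraries are the only points behind these distances.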
